A study of Mus musculus with 2 samples.

Results

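The genes described here mark the cells of blood and lymph vessels, namely endothelial cells, which line the vessel, and pericytes and other mural cells, which wrap around it. They were chosen by name as a list of 32 genes (26 endothelial, lymphatic ones included, and 6 mural or mural-derived), and a gene was taken where its symbol equalled a row of the deposited count table. Of the 32, 31 were found among 24421 rows. *Gpr116* had no row under that symbol. RNA-Seq had been performed on 1 library of primary chondrocytes, isolated by collagenase from the rib cartilage of newborn mice and used within 2 passages, and on 1 library of primary dermal fibroblasts, isolated by collagenase from the dorsal skin of newborn mice. The genotype, strain and sex of the mice, the number of animals behind each library and the passage of the fibroblasts are not given in the sources used here, and no treatment is described. The study compared the libraries to find genes more abundant in chondrocytes, with dermal fibroblasts as the control cells.

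Endothelial cells form junctions through VE-cadherin and PECAM1, respond to VEGF through the receptors KDR, FLT1 and FLT4, and are stabilized or loosened through the TIE receptors and their angiopoietin ligands. ETS factors such as ERG and FLI1 and the SOXF factors are known regulators of the endothelial program, and PROX1 and LYVE1 mark lymphatic endothelium. Cartilage is an avascular tissue, whereas the dermis holds dense blood and lymph vessels.

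The deposited reads summed to 18788599 counts in chondrocytes and 17563724 in dermal fibroblasts. Folds were computed after division by the size factor of each library (0.994 and 1.006, median of ratios), with counts under 3 set to 3. Each fold has a 95% Clopper-Pearson interval for counting error alone. The reads carry no molecular identifiers, so they may not be independent molecules. As there was 1 library for each cell type, no test was made, the spread between animals or between cultures is unknown, and a fold over 2 is a description of these libraries. The labels held for 7 of 7 chondrocyte markers and 6 of 7 dermal fibroblast markers, each over 2-fold higher in its own cell type. The exception, *Lum*, was 1.12-fold higher in chondrocytes (interval 1.07 to 1.18). *Col1a1* and *Col3a1* were higher in dermal fibroblasts but still ranked 30 and 43 among the genes tested in chondrocytes. *Col2a1*, *Acan* and *Col9a1*, components of cartilage matrix, had 1447098, 148105 and 92699 counts in chondrocytes against 0, 35 and 1 in dermal fibroblasts, and *Col1a1*, *Col3a1* and *Dcn* of fibrous connective tissue were 8.13-, 8.41- and 3.48-fold higher in dermal fibroblasts.

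Most endothelial genes had more reads in dermal fibroblasts, although they were present at low level in both libraries. All 31 genes had at least 10 counts summed over both libraries and 0 of them was without reads in either library. Of the 31, 18 (58.1%) were over 2-fold higher in dermal fibroblasts, against 16.4% of the 14730 genes with at least 10 summed counts. In the other direction 4 genes (*Sox7*, *Erg*, *Angpt1* and *Cspg4*) were over 2-fold higher in chondrocytes, a share of 12.9% that lay near the 11.8% of those genes. The whole counting interval lay beyond 2-fold for 11 genes on the dermal fibroblast side (10.7% of all genes) and for the same 4 genes on the chondrocyte side (6.79% of all genes). The median log2 fold of chondrocytes over dermal fibroblasts was -1.30 over the 31 genes and -0.02 over all genes tested. Among the 25 endothelial genes in the table, 15 were over 2-fold higher in dermal fibroblasts and 2 in chondrocytes, with a median log2 fold of -1.46. Among *Angpt1* and the 5 mural genes the calls were divided, with 3 over 2-fold higher in dermal fibroblasts and 2 in chondrocytes, and the median was -0.37. In a bulk library, fewer cells of a type and less RNA per cell cannot be told apart.

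**Figure D1:**
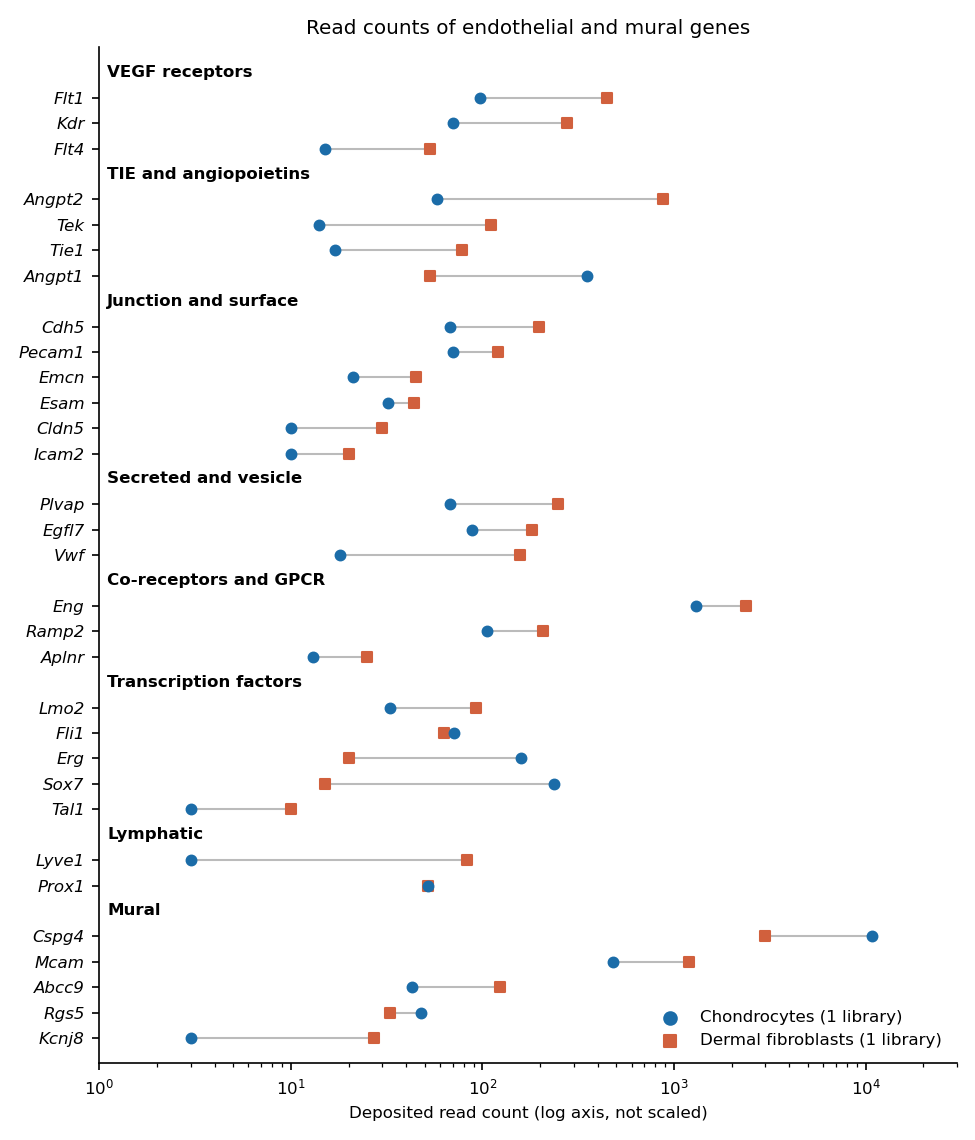
Deposited read count of each gene (log axis, not scaled) in the chondrocyte library (circles) and the dermal fibroblast library (squares), grouped by role. Most squares lie to the right of their circles, those of *Sox7*, *Erg*, *Angpt1*, *Cspg4*, *Rgs5* and *Fli1* lie to the left, and those of *Prox1* coincide.

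**Figure D2:**
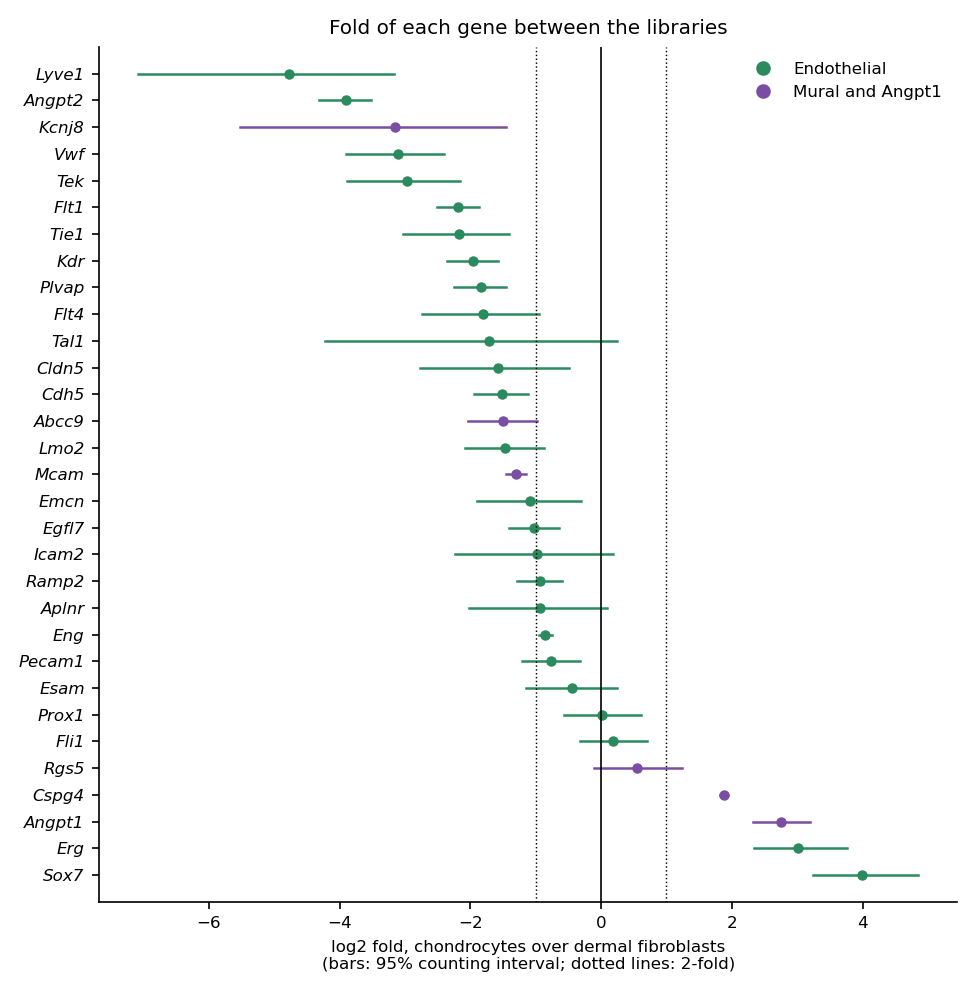
Log2 fold of chondrocytes over dermal fibroblasts for each gene after scaling, ordered by value, with bars for the 95% counting interval and dotted lines at 2-fold. The values run from -4.77 for *Lyve1* to 3.99 for *Sox7*, and 7 of the 31 intervals cross equality.

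The reads of the 31 genes made up a small share of each library. They summed to 765 CPM (counts scaled to the library total) in chondrocytes and 583 CPM in dermal fibroblasts. The 25 endothelial genes summed to 140 and 331 CPM, and the 5 mural genes with *Angpt1* to 625 and 251 CPM. *Cspg4* alone made up 576 CPM in chondrocytes and 169 CPM in dermal fibroblasts. Without it, the 5 other genes of the mural group went the other way, with 49.4 CPM in chondrocytes and 82 CPM in dermal fibroblasts. In chondrocytes the counts of the 31 genes ranged from 3 to 10824 (*Cspg4*, a mural gene) with a median of 52, and 10 genes had fewer than 20 counts. In dermal fibroblasts they ranged from 10 to 2976 with a median of 83, and 2 genes had fewer than 20. Among the 14730 genes tested, the median rank of the 31 genes by count was 11433 in chondrocytes and 10910 in dermal fibroblasts, so that most of them lay among the less abundant genes. Endoglin (*Eng*), a TGF-beta co-receptor that mesenchymal cells also carry, was the most abundant endothelial gene per length, at 17.8 RPKM in chondrocytes and 34.9 RPKM in dermal fibroblasts (counts per kilobase of exon, scaled to the library total). Without it, the 24 other endothelial genes summed to 1331 counts in chondrocytes (70.8 CPM) and 3449 in dermal fibroblasts (196 CPM). On the RPKM scale, 10 of the 31 genes were above 1 in chondrocytes and 16 in dermal fibroblasts. The share of all genes above 1 RPKM was not computed, so these counts have no background.

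**Figure D3:**
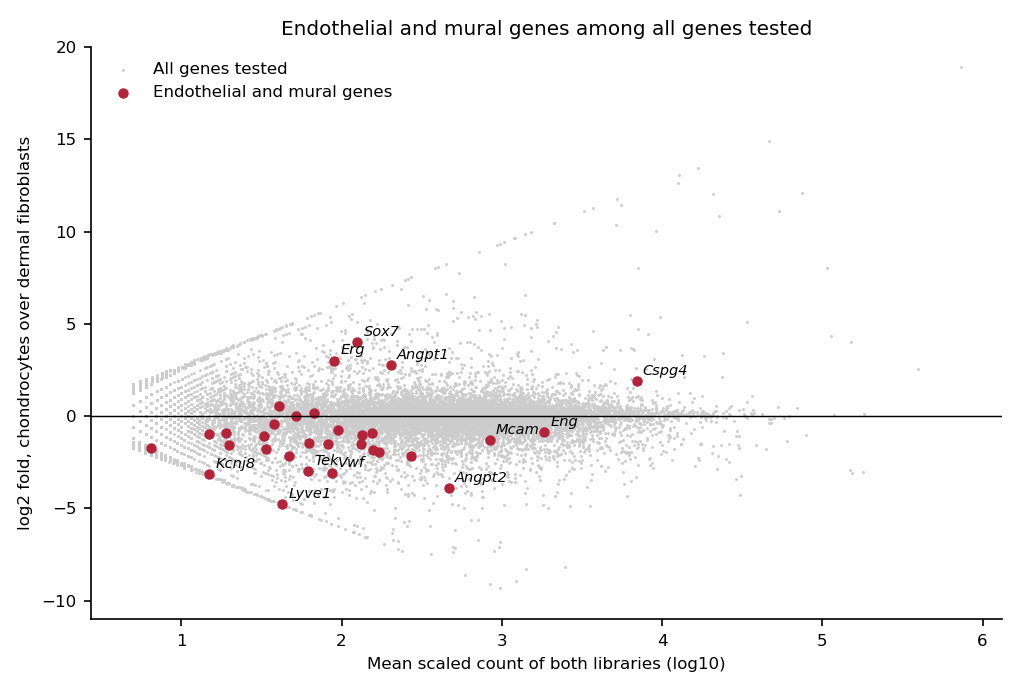
Log2 fold of chondrocytes over dermal fibroblasts (vertical) against the mean scaled count of both libraries (horizontal, log10) for the 14730 genes with at least 10 summed counts (grey) and the 31 endothelial and mural genes (red). Most red points lie below 0 and toward the left, and *Cspg4*, *Eng*, *Mcam* and *Angpt2* are the most abundant.

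All 3 VEGF receptors had more reads in dermal fibroblasts. *Flt1*, a receptor that also acts as a decoy for VEGF-A, had 97 counts in chondrocytes against 446 in dermal fibroblasts, a 4.54-fold difference (interval 3.64 to 5.72). *Kdr*, the main signaling receptor for VEGF-A, had 70 and 276 counts and was 3.89-fold higher (interval 2.99 to 5.14). *Flt4*, the receptor for VEGF-C and VEGF-D on lymphatic endothelium, had 15 and 53 counts and was 3.49-fold higher (interval 1.94 to 6.67). The 3 intervals overlapped, so that the receptors differed between the libraries by amounts that counting error does not separate. Per length, *Flt1* and *Kdr* lay side by side in dermal fibroblasts (2.19 and 2.16 RPKM) and *Flt4* was lower (0.367 RPKM).

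The TIE receptors and *Angpt2* were higher in dermal fibroblasts, whereas *Angpt1* was higher in chondrocytes. *Tek*, which encodes the angiopoietin receptor TIE2, had 14 counts in chondrocytes against 111 in dermal fibroblasts and was 7.83-fold higher there (interval 4.48 to 14.8). Its partner receptor *Tie1* had 17 and 78 counts, a 4.53-fold difference (interval 2.66 to 8.17). *Angpt2*, the ligand that can antagonize TIE2 and is stored and released by endothelial cells, had 58 and 877 counts and was 14.9-fold higher in dermal fibroblasts (counting interval 11.4 to 19.8). At 13.5 RPKM there, it exceeded *Tek* (1.34 RPKM) and *Tie1* (0.903 RPKM) of the same library. *Angpt1*, the activating ligand that mural and mesenchymal cells secrete, had 352 counts in chondrocytes against 53 in dermal fibroblasts and was 6.72-fold higher in chondrocytes (interval 5.03 to 9.15). The order of the ligands therefore differed between the libraries, with *Angpt1* at 4.40 and *Angpt2* at 0.837 RPKM in chondrocytes, and at 0.709 and 13.5 RPKM in dermal fibroblasts. *Angpt4*, the remaining mouse angiopoietin, named after its values were seen, had 253 and 270 counts, a fold of 1.05 (interval 0.885 to 1.26).

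The promoters of the receptor genes are shown because these genes were higher together in dermal fibroblasts, and those of *Erg* and *Cspg4* because they went the other way. Each is the 250 bases before an annotated start site, from RefSeq on GRCm38.p6, written 5′ to 3′ on the strand of the gene. For *Kdr*, *Flt1*, *Tek* and *Erg* that start site lies inside the annotated span of the gene. Capitals mark the ETS core words CAGGAA and CCGGAA on either strand (TTCCTG and TTCCGG when read from the other strand), which have GGAA in common and were counted separately.
*Kdr* (chr5:75978456-75978705, minus strand): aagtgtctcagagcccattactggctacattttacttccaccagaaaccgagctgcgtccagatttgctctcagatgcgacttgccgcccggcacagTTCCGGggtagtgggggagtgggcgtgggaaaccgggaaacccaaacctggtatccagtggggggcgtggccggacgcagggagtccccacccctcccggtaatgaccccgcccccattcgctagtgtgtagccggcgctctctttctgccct
*Flt1* (chr5:147726012-147726261, minus strand): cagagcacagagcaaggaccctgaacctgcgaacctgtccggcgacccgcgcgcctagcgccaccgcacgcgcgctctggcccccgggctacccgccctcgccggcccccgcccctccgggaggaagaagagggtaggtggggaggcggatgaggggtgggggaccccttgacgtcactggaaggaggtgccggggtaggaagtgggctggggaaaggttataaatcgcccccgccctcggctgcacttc
*Flt4* (chr11:49609429-49609678, plus strand): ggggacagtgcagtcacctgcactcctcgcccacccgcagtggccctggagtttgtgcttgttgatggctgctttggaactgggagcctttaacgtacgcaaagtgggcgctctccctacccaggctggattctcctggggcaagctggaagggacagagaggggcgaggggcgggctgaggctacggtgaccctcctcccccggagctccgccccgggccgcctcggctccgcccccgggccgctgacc
*Tek* (chr4:94739039-94739288, plus strand): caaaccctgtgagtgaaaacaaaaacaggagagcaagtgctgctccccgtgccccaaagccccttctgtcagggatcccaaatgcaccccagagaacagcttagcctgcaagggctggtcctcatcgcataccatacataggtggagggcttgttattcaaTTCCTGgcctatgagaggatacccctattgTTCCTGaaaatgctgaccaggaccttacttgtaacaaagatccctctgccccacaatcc
*Tie1* (chr4:118489850-118490099, minus strand): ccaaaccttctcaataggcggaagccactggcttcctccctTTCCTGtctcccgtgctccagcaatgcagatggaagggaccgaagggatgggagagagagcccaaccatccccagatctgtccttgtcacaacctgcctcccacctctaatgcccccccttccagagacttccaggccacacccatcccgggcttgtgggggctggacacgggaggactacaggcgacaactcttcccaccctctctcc
*Erg* (chr16:95459349-95459598, minus strand): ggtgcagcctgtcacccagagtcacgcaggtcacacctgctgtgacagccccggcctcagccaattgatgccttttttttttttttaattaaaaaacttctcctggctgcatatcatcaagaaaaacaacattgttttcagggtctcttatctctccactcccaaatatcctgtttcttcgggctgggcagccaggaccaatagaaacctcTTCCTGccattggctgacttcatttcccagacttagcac
*Cspg4* (chr9:56864854-56865103, plus strand): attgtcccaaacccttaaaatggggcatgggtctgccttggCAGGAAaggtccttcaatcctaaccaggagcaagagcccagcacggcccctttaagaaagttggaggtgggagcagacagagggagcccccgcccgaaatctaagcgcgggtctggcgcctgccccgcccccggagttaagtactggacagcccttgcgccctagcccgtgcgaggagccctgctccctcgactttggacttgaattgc
Of the 31 genes, 17 had a promoter in the RefSeq table, some with several start sites, and 10 of their 23 promoters held at least 1 of the words (43.5%), against 35.1% of 32851 promoters of the same length. By word, CAGGAA was in 39.1% of the 23 promoters and 25.7% of all, and CCGGAA in 4.35% and 12%. Among the receptors shown, *Tek* had 2 matches, *Tie1* and *Kdr* had 1 each, and *Flt1* and *Flt4* had neither word in this window. Other runs with GGAA, such as those in the *Flt1* promoter, were not marked or counted. The *Erg* promoter shown is the one of 3 annotated *Erg* promoters with a match. A match is a run of letters and not a measured binding site, and the shares rest on few promoters.

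The junction and surface genes were higher in dermal fibroblasts by smaller amounts. *Cdh5*, which encodes VE-cadherin of the endothelial adherens junction, had 68 counts in chondrocytes against 198 in dermal fibroblasts and was 2.88-fold higher (interval 2.17 to 3.85). *Pecam1*, an adhesion molecule of endothelium and leukocytes, had 70 and 120 counts and lay within 2-fold, at 1.69 (interval 1.25 to 2.31). *Esam*, an endothelial tight junction molecule, had 32 and 44 counts, and its interval crossed equality (1.36-fold, interval 0.842 to 2.21). The interval of *Tek* (from 4.48) began above the upper bounds of *Pecam1* and *Esam*, so the endothelial genes did not share 1 common fold within counting error. *Cldn5*, a claudin of the blood-brain barrier and other endothelium, had 10 and 30 counts (2.96-fold, interval 1.41 to 6.79), and the sialomucin gene *Emcn* had 21 and 45 (2.12-fold, interval 1.23 to 3.74). *Icam2*, an adhesion molecule shared with leukocytes and platelets, had 10 and 20 counts, a 1.98-fold difference whose interval crossed equality (0.882 to 4.73).

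Secreted and vesicular products of endothelium were all over 2-fold higher in dermal fibroblasts. *Vwf*, the clotting glycoprotein stored in Weibel-Palade bodies, had 18 counts in chondrocytes against 157 in dermal fibroblasts and was 8.61-fold higher (interval 5.28 to 14.9). *Plvap*, a structural protein of fenestral and caveolar diaphragms, had 68 and 247 counts, a 3.59-fold difference (interval 2.73 to 4.76). At 6.98 RPKM it exceeded *Cdh5* (2.83 RPKM) and *Pecam1* (1.58 RPKM) in dermal fibroblasts. *Egfl7*, a secreted factor that hosts an endothelial microRNA, had 88 and 181 counts and was just over the threshold at 2.03-fold (interval 1.57 to 2.65).

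The co-receptors and G protein-coupled receptors lay within 2-fold. *Eng* had 1296 counts in chondrocytes against 2372 in dermal fibroblasts and was 1.81-fold higher in dermal fibroblasts (counting interval 1.69 to 1.94). *Ramp2*, the partner of the adrenomedullin receptor, had 106 and 206 counts, a 1.92-fold difference (interval 1.51 to 2.45). *Aplnr*, the apelin receptor, had 13 and 25 counts, a fold of 1.90 whose interval crossed equality (0.936 to 4.04). The direction was thus the same for the 3 genes, but none of their intervals lay wholly beyond 2-fold. In GENCODE vM1 the exons of *Ramp2* share 1103 of 3301 bp with *Vps25* on the same strand, which had 1109 and 991 counts, and the exons of *Eng* share 124 of 3870 bp with *Ak1*, and those of *Egfl7* share 264 of 3581 bp with *Gm20532* and 73 bp with *Mir126* on the same strand and 64 bp with *Agpat2* on the opposite strand, so that reads in the shared bases cannot be assigned with certainty. The exons of *Angpt1* share 283 of 4256 bp with *Gm17473* on the opposite strand. *Adgrf5*, the current symbol of *Gpr116* in RefSeq, was looked up after the missing row was seen. It had 133 counts in chondrocytes against 101 in dermal fibroblasts, 1.33-fold higher in chondrocytes (interval 1.02 to 1.74).

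The 5 transcription factors were divided, with 2 over 2-fold higher in chondrocytes and 2 in dermal fibroblasts. These were 40% each, against 11.8% and 16.4% of all genes. *Sox7*, a SOXF factor of early endothelial and blood development (chromosome 14, 63943706 to 63950732 in GRCm38), had 235 counts in chondrocytes against 15 in dermal fibroblasts and was 15.9-fold higher in chondrocytes (interval 9.42 to 28.8). *Erg*, an ETS factor of endothelium that is also known from developing joint cartilage (chromosome 16, 95359169 to 95586600), had 159 and 20 counts and was 8.05-fold higher in chondrocytes (interval 5.04 to 13.5). In dermal fibroblasts, where *Cdh5*, *Kdr* and *Tek* were higher, *Sox7* and *Erg* were at 0.259 and 0.327 RPKM, below their levels of 3.79 and 2.43 RPKM in chondrocytes. *Fli1*, the ETS factor closest to ERG, had 71 and 63 counts and its interval crossed equality (1.14-fold higher in chondrocytes, interval 0.801 to 1.63). *Lmo2*, an adaptor protein of blood and endothelial progenitors, had 33 and 92 counts and was 2.75-fold higher in dermal fibroblasts (counting interval 1.83 to 4.23). Its partner *Tal1* had 3 and 10 counts, a ratio of 3.29 with an interval from 0.848 to 18.6. The 2 other SOXF factors were named after *Sox7* was seen. *Sox18* had 37 and 47 counts (1.25-fold higher in dermal fibroblasts, interval 0.798 to 1.99), and *Sox17* had 11 and 2, a ratio of 3.71 in favor of chondrocytes with the 2 set to the floor of 3 counts, and an interval starting at 1.22.

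The lymphatic markers differed from each other. *Lyve1*, the hyaluronan receptor of lymphatic endothelium and of some tissue macrophages, had 3 counts in chondrocytes against 83 in dermal fibroblasts, a ratio of 27.3 (interval 9.03 to 135) that rests on the 3 counts. *Prox1*, the homeodomain factor that specifies lymphatic endothelium, had 52 counts in each library and a fold of chondrocytes over dermal fibroblasts of 1.01 (interval 0.676 to 1.52), which became 0.935 with scaling to total counts. Of 5 further lymphatic genes, 3 lay over 2-fold higher in dermal fibroblasts, 1 in chondrocytes, and 1 (*Ccl21a*) had 0 counts in both. Among the 4 tested these were 75% and 25%, against 16.4% and 11.8% of all genes. The 1 gene higher in chondrocytes, *Stab2*, named after its values were seen, had 9 and 4 counts. Its interval crossed equality (2.28-fold, interval 0.636 to 10.1). *Pdpn*, a mucin-type glycoprotein of lymphatic endothelium that fibroblasts also express, had 180 and 2716 counts (14.9-fold higher in dermal fibroblasts). *Reln*, a secreted glycoprotein, had 55 and 185 counts (3.32-fold), and *Mmrn1*, a protein of lymphatic endothelium and platelets, had 1 and 41, a ratio of 13.5 against the floor of 3 counts whose interval started at 6.87.

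Among the mural genes, *Cspg4* stood apart in level. It encodes the proteoglycan NG2, a pericyte marker that chondrocytes are also known to carry, and had 10824 counts in chondrocytes (71.6 RPKM) and 2976 in dermal fibroblasts (21.0 RPKM), 3.68-fold higher in chondrocytes (interval 3.54 to 3.84). It ranked 187 among the genes tested in chondrocytes. *Mcam*, an adhesion molecule of endothelium and pericytes, had 482 and 1204 counts and was 2.47-fold higher in dermal fibroblasts (counting interval 2.22 to 2.75). The genes *Abcc9* and *Kcnj8*, which lie next to each other on chromosome 6 and encode both subunits of the vascular potassium channel sensitive to ATP, were higher in dermal fibroblasts. *Abcc9* had 43 and 123 counts (2.83-fold, interval 1.98 to 4.10), and *Kcnj8* had 3 and 27, a ratio of 8.89 with an interval from 2.74 to 45.8. *Rgs5*, a regulator of G protein signaling used as a pericyte marker, had 48 and 33 counts, and its interval crossed equality (1.47-fold higher in chondrocytes, interval 0.926 to 2.37).

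A further list of 30 endothelial genes differed less between the libraries. Of the 28 with at least 10 summed counts, 9 (32.1%) were over 2-fold higher in dermal fibroblasts, against 16.4% of all genes, and 4 (14.3%) in chondrocytes, near the 11.8% of all genes, and the median log2 fold was -0.44. The whole interval lay beyond 2-fold for 2 of them on the dermal fibroblast side and 0 on the chondrocyte side, smaller shares than the 10.7% and 6.79% of all genes. *Cd34*, a sialomucin of endothelium and of dermal fibroblast progenitors, had 149 and 612 counts (4.06-fold higher in dermal fibroblasts, interval 3.39 to 4.89). *Ephb4*, an ephrin receptor of venous endothelium, had 979 and 1352 (1.36-fold), and *Tspan18* had 464 and 333 (1.41-fold higher in chondrocytes). The other gene with an interval wholly beyond 2-fold, *Ptprb*, was named after its values were seen. It encodes the phosphatase that acts on TIE2 and had 13 and 123 counts (9.34-fold, interval 5.27 to 18.0). The size of the shift therefore depended on which endothelial genes were listed.

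The other mural genes were divided, as those above were. Of 11 with at least 10 summed counts, 4 were over 2-fold higher in dermal fibroblasts and 4 in chondrocytes. These were 36.4% each, against 16.4% and 11.8% of all genes. The median log2 fold was 0.84 and became -0.43 over the genes with at least 100 summed counts. The summed level of the 12 listed genes went the other way, from 570 CPM in chondrocytes to 1567 CPM in dermal fibroblasts. *Pdgfrb*, the PDGF receptor of pericytes and fibroblasts, had 3719 and 19453 counts (5.17-fold higher in dermal fibroblasts), *Anpep* had 373 and 4213 (11.2-fold), and the muscle intermediate filament gene *Des* had 3790 and 1655 (2.32-fold higher in chondrocytes). Of the 7 smooth muscle genes, 5 (71.4%) lay over 2-fold higher in dermal fibroblasts and 0 in chondrocytes. The actin gene *Acta2* had 9075 and 25773 counts (2.80-fold), *Tagln* 2041 and 7518 (3.64-fold), and *Smtn* 2273 and 1877 (a fold of 0.816 of dermal fibroblasts over chondrocytes).

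Vascular ligands, not all of which act on the receptors above, mostly had more reads in dermal fibroblasts. Among 15 vascular ligands with at least 10 summed counts, 7 (46.7%) were over 2-fold higher in dermal fibroblasts and 0 in chondrocytes. The shares of all genes were 16.4% and 11.8%. The median log2 fold of the ligands was -0.89. The chemokine gene *Cxcl12* had 2393 and 9048 counts (3.73-fold higher in dermal fibroblasts), *Vegfa* had 1869 and 2609 (1.38-fold), and *Angptl4* had 1382 and 833 (1.68-fold higher in chondrocytes). Of 8 co-receptor and guidance receptor genes, 4 (50%) lay over 2-fold higher in dermal fibroblasts and 0 in chondrocytes. *Nrp2*, *Itgav* and *Unc5b* were 1.63-, 2.35- and 2.02-fold higher in dermal fibroblasts. Antiangiogenic and matrix genes went both ways, with 4 of 9 (44.4%) over 2-fold higher in dermal fibroblasts and 2 (22.2%) in chondrocytes. *Sparc* had 120019 and 115617 counts, *Thbs1* had 80164 and 58838, and *Thbs2* had 4967 and 52992 (10.5-fold higher in dermal fibroblasts). *Lect1*, the chondromodulin gene, a cartilage inhibitor of vessel ingrowth named after its values were seen, had 33082 counts in chondrocytes against 0 in dermal fibroblasts, which is at least 11165-fold more in chondrocytes when the 0 is set to the floor of 3 counts per library (counting interval from 9080).

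Markers of other cell types went both ways. Of 12 macrophage and leukocyte genes, 12 had more scaled counts in dermal fibroblasts, where 7540 of the 14730 genes tested were higher. The difference was over 2-fold for 3 of the 12 (25%), against 16.4% of all genes. The summed level of the list was 130 CPM in chondrocytes and 246 CPM in dermal fibroblasts. *Lyz2* had 1046 and 1639 counts (1.55-fold), *Cd68* 423 and 600 (1.40-fold) and *Mrc1* 157 and 635 (3.99-fold). This list bears on *Lyve1*, *Pecam1*, *Icam2*, *Lmo2* and *Tal1*, which blood cells or macrophages also express, and its part in their folds was not tested. The 6 megakaryocyte and platelet genes summed to 14.6 and 9.79 CPM. Of 5 tested, 0 were over 2-fold higher in dermal fibroblasts and 2 (40%) in chondrocytes, against 11.8% of all genes in chondrocytes. *Pf4* had 131 and 34 counts, *Itga2b* 63 and 55, and *Gp1bb* 38 and 69. *Vwf*, which platelets also hold, was higher in dermal fibroblasts. Of 10 erythroid genes, 7 had 0 counts in each library, the 5 globin genes among them, and the sum was 21 and 17 counts. Among the erythroid genes, *Epor* had 10 and 13 counts and *Alas2* had 9 and 3. The 7 keratinocyte genes summed to 15.2 and 277 CPM, with 17 and 1939 counts for *Krt14*, 1 and 1693 for *Krt5*, and 27 and 722 for *Dsp*. The 5 Schwann cell genes summed to 160 and 68.8 CPM, with 2657 and 87 counts for *S100b*, which chondrocytes express, and 197 and 452 for *Erbb3*. The 8 skeletal muscle genes summed to 1783 and 1388 CPM, with 7288 and 7970 counts for *Actc1*, 7784 and 6497 for *Myh3*, and 6259 and 4705 for *Acta1*. The macrophage, keratinocyte and Schwann cell lists had negative median log2 folds like the 31 genes (-0.59, -3.95 and -1.18). The skeletal muscle, megakaryocyte and erythroid lists had positive ones (0.74, 0.21 and 0.62, the last over 2 genes tested). The part of these lists in the results was not tested.

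**Figure D4:**
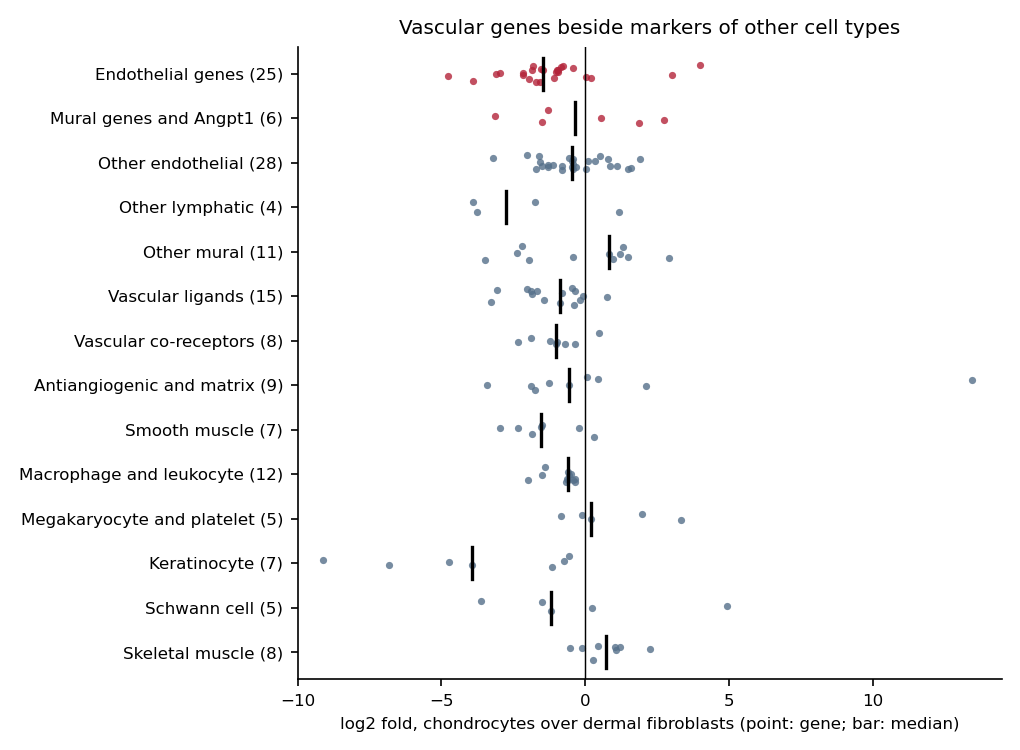
Log2 fold of chondrocytes over dermal fibroblasts for each gene with at least 10 summed counts (points) in the endothelial and mural genes (red) and in the other lists (blue), with the number of genes in parentheses and a bar at each median. The endothelial genes have a median of -1.46, the further endothelial list -0.44, and the macrophage list -0.59.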

How the data were processed

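RNA was measured in primary rib chondrocytes and in primary dermal fibroblasts, with 1 library each. Per the study's methods and the submitters' processing notes, stranded mRNA libraries gave single-end reads of 75 bp, which were mapped to mm10 with TopHat2 2.0.13, Bowtie2 2.2.3 and SAMtools 0.1.19 after base calling with CASAVA 1.8.2. The authors deposited unscaled read counts, whole numbers, for each gene symbol. The counting program, its annotation and its strand setting are not given in the sources used here. Overlapping genes are therefore uncertain.

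Counts were scaled by median-of-ratios factors over genes counted in both libraries (Python 3.11.15, numpy 2.4.6, pandas 2.3.3), counts under 3 were set to 3, and genes with at least 10 summed counts were compared. Intervals are 95% Clopper-Pearson (scipy 1.17.1), and the calculations were tested on simulated data. No p-value was computed, since neither cell type had a replicate. Alternatives were total counts, TMM (edgeR 4.0.16 in R 4.3.3), the upper quartile, total counts without the 10 most abundant genes, *Actb*, floors of 1 and 10 counts, other filters and stricter thresholds. Exon lengths were those of GENCODE vM1 (NCBIM37) and positions and promoters those of RefSeq GRCm38.p6, the build of mm10.

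The genes, the lists of other vascular genes and the markers of other cell types were chosen with earlier results of these data known. Every gene of the main list was named, and of each other list the 3 with the most reads, of which 2 are not reported here. Other genes were named after their values were seen.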

Additional observations from a re-analysis of the deposited data

How the results depend on the processing

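No paired analysis was possible because neither library has a replicate. With the factors used, 18 genes lay over 2-fold higher in dermal fibroblasts, and the number lay between 16 (*Actb*) and 21 (total counts) over the scalings, since *Egfl7*, *Emcn*, *Icam2*, *Ramp2* and *Aplnr* lie near 2-fold. Total counts shifted all log2 folds by -0.12 and *Actb* by 0.14 relative to the factors used, and genes higher in dermal fibroblasts made up 58.3% of all 2-fold calls with the factors used, 64.0% with total counts and 52.0% with *Actb*. Stricter rules removed genes by construction, leaving 11 with the whole interval beyond 2-fold (10.7% of all genes) and 7 with a fold over 4. The share of all genes over 4-fold was not computed in either direction, so the counts at that fold have no background. Of the 20 genes with at least 100 summed counts, 11 were left, against 13.6% of all 11811 such genes. A floor of 10 counts moved the median log2 fold from -1.30 to -1.08 and the chondrocyte-over-fibroblast ratios of *Lyve1* from 0.0366 to 0.122 and of *Kcnj8* from 0.112 to 0.375, and it turned that of *Tal1* from 0.304 to 1.01, because both of its counts are then at the floor. With *Adgrf5* taken as *Gpr116*, an alternative chosen after seeing the data, the median was -1.19. In the other direction the count was 4 under every alternative run except a fold over 4, which gave 3. With at least 100 summed counts these were 4 of 20 genes, against 8.53% of all 11811 such genes. With the whole interval beyond 2-fold they were 4 of 31, against 6.79% of all genes. Of 217 folds of single genes under the scalings and floors, 7 left the counting interval without a change of direction, and 2 changed direction, *Tal1* as above and *Prox1*, which went from 1.01 to 0.935 with total counts. Depth limits *Tal1*, *Lyve1* and *Kcnj8* most, each with 3 counts in chondrocytes.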
